A study of Mus musculus with 38 samples.

Results

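Cxcl12, Cxcr4, Kitl, Il7, Lepr, Pdgfra and Pdgfrb are 7 of the 13260 genes in the deposited table, chosen by symbol as factors that hold blood and plasma cells in the marrow or as receptors that mark the stromal cells making them. All 7 symbols were present. They were chosen with earlier results of these data known. Their expression was followed over 38 RNA-Seq libraries of 100 sorted cells each, in 8 groups. C57Bl/KaLwRijHsd mice of 8 to 10 weeks received either PBS vehicle (healthy) or 1000000 5TGM1-GFP cells (myeloma-bearing) by intravenous injection and were killed on day 23. No drug was given in any group. 5TGM1-GFP is a mouse myeloma cell line tagged with green fluorescent protein, so all myeloma values come from 1 line.

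Niche cells were released with collagenase from long bones that had been washed free of marrow, and sorted from the CD45-/Ter119- fraction as CD31+ endothelial cells, Sca1+ ALCAM- stromal progenitors or ALCAM+ Sca1- osteoprogenitors, the last 2 being CD31-. Healthy mice gave 5 endothelial, 5 stromal progenitor and 4 osteoprogenitor libraries, and myeloma-bearing mice gave the same numbers. GFP+ myeloma cells gave 5 libraries from the bone lining and 5 from the central marrow. The design text says that replicates came from different mice, but no label says that a letter shared by libraries of several cell types stands for 1 mouse. Where niche and myeloma cells are compared, or healthy and diseased mice, fewer expressing cells among the 100 and less RNA per cell cannot be told apart in such bulk libraries.

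CXCL12 is a chemokine that draws and holds cells bearing its receptor CXCR4, among them haematopoietic stem cells, B-lineage cells and plasma cells. Kitl encodes stem cell factor, the ligand of the receptor KIT, and IL-7 drives the growth of early B cells. In marrow these ligands come mainly from perivascular stromal cells known as Cxcl12-abundant reticular cells, most of which carry the leptin receptor, and from sinusoidal and arteriolar endothelium. PDGFRα and PDGFRβ are receptor tyrosine kinases that mark mesenchymal and perivascular cells.

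Libraries held 9735031 to 34883291 reads on genes. Of 7 endothelial markers, all 7 exceeded 1 RPKM in at least 1 endothelial library of each group and their summed level was 2057 to 4384 RPKM per library, against 0.22 to 29.7 RPKM over the other niche libraries, in which Kdr and Selp never passed 1 RPKM. The summed level of the 9 osteoprogenitor markers was 8558 to 60180 RPKM per osteoprogenitor library, 776 to 2659 RPKM per stromal progenitor library and 16.6 to 626 RPKM per endothelial library. The 4 stromal progenitor markers in the table did not set these cells apart from endothelial cells, with summed levels of 2553 to 9130 RPKM per endothelial library, 984 to 3230 RPKM per stromal progenitor library and 32.7 to 148 RPKM per osteoprogenitor library. In healthy stromal progenitors against endothelial cells Prrx1 was called higher (4.69 on the log2 scale), and Ly6a, which encodes Sca1 (-1.63), and Cd34 (-1.80) were called lower. Myeloma libraries had a summed plasma cell marker level of 3036 to 9525 RPKM against at most 35.3 RPKM in niche cells. Cxcl12, Cxcr4, Lepr, Pdgfra and Pdgfrb are themselves among the cell type markers the study lists for these populations, so their place in a cell type is not independent evidence of it.

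Cxcl12 lies on chromosome 6 (117168535 to 117181367, plus strand, GRCm38), Kitl on chromosome 10 (100015630 to 100100416, plus strand) and Il7 on chromosome 3 (7569994 to 7613760, minus strand). Among the receptors, Cxcr4 lies on chromosome 1 (128588199 to 128592293, minus strand), Lepr on chromosome 4 (101717404 to 101815352, plus strand), Pdgfra on chromosome 5 (75152292 to 75198215, plus strand) and Pdgfrb on chromosome 18 (61045150 to 61085061, plus strand). GENCODE vM21 places an antisense gene over Il7 and 3 short or non-coding genes over Pdgfra, none of which is in the table, and no gene over the other 5. The reads were counted without a stated strand, so reads of an antisense transcript cannot be told apart from those of Il7 or Pdgfra.

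All values below are RPKM, reads scaled by transcript length and library size, which can be set side by side between genes, and n counts libraries. Fold changes are differences of mean log2(RPKM + 1), which understate changes at low levels. They were tested with limma over the genes that exceeded 1 RPKM in 4 or more libraries of the comparison, and a gene was called at a Benjamini-Hochberg adjusted p below 0.1 with an absolute log2 fold change above 1.

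**Figure D1:**
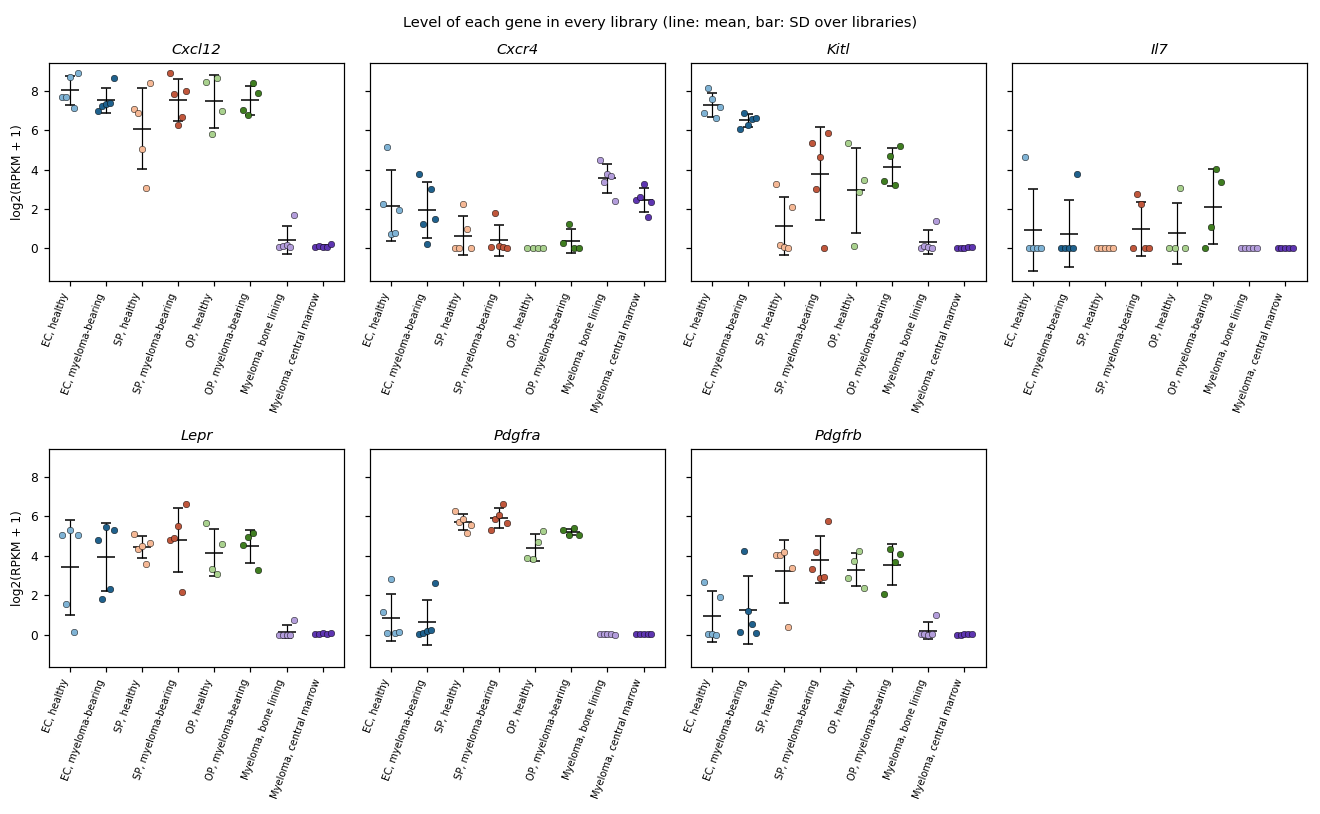
Level of the 7 genes as log2(RPKM + 1) in each library (points), with the mean (line) and SD (bar) of each of the 8 groups; EC, endothelial cells; SP, stromal progenitors; OP, osteoprogenitors. Cxcl12 was above 7 RPKM in all 28 niche libraries, Pdgfra was high in every SP and OP library, and Il7 was at 0 in most libraries of every group except OP of myeloma-bearing mice.

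Among the ligands, Cxcl12 had the highest mean of the 7 genes in all 3 niche cell types. In endothelial cells of healthy mice it stood at 137, 202, 205, 407 and 472 RPKM, and in those of myeloma-bearing mice at 125, 149, 161, 163 and 396 RPKM. Stromal progenitors held 7.39, 31.4, 114.5, 133 and 331 RPKM in healthy mice and 75.7, 101, 224, 247.5 and 474 RPKM in myeloma-bearing mice. Osteoprogenitors held 54.4, 122, 343 and 396 RPKM and 109, 130, 232 and 330 RPKM, respectively. The libraries of all 6 niche groups overlapped. Over both conditions Cxcl12 averaged 242 ± 130 RPKM (SD, n = 10) in endothelial cells, 214.5 ± 128.5 RPKM (SD, n = 8) in osteoprogenitors and 174 ± 146 RPKM (SD, n = 10) in stromal progenitors, where the highest library was 64.1-fold above the lowest. Myeloma cells had 0.052 to 0.177 RPKM (8 to 27 reads) in 9 of 10 libraries.

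Kitl had a different order, with endothelial cells well above both mesenchymal types. It stood at 97.8, 117, 145, 188 and 284 RPKM in endothelial cells of healthy mice and at 65.9, 76.6, 94.9, 98.2 and 116 RPKM in those of myeloma-bearing mice. In healthy stromal progenitors it was close to absent in 3 libraries, with 0.017, 0.060 and 0.14 RPKM (2 to 13 reads), and reached 3.35 and 8.54 RPKM in the other 2. In stromal progenitors of myeloma-bearing mice the values were 0.029, 7.07, 24.2, 40.1 and 56.7 RPKM. Osteoprogenitors held 0.10, 6.17, 9.97 and 40.2 RPKM in healthy mice and 8.40, 9.74, 24.9 and 35.2 RPKM in myeloma-bearing mice. The lowest endothelial library was thus above the highest mesenchymal library, 56.7 RPKM, while stromal progenitors and osteoprogenitors overlapped, at 14.0 ± 19.9 RPKM (mean and SD, n = 10) and 16.8 ± 14.7 RPKM (mean and SD, n = 8). Myeloma cells had at most 8 reads of Kitl in 9 of 10 libraries.

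Il7 was present or absent by library. It had 0 reads in 19 of 28 niche libraries and 1 read in another, and the 8 libraries above 1 RPKM ran from 1.12 to 24.2 RPKM. In endothelial cells it was found in 1 healthy library at 24.2 RPKM (1037 reads) and in 1 library of myeloma-bearing mice at 12.5 RPKM (1071 reads). All 5 healthy stromal progenitor libraries had 0 reads, a count that allows up to 3 reads each by counting error, and 2 of the 5 from myeloma-bearing mice held 3.75 and 5.71 RPKM. Osteoprogenitors held 7.31 RPKM in 1 of 4 healthy libraries, and 1.12, 9.22 and 15.2 RPKM in 3 of 4 from myeloma-bearing mice. Myeloma cells had 1 read in 1 of 10 libraries and 0 in the rest.

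Cxcr4, the receptor of CXCL12, was the only one of the 7 genes with a higher mean in myeloma cells of both niches together than in each niche cell type. That mean was 8.44 RPKM, against 6.485 RPKM in endothelial cells of both conditions, the highest of the niche types. Bone-lining myeloma cells averaged 11.98 RPKM, while those of the central marrow averaged 4.90 RPKM, below the endothelial mean. Bone-lining myeloma libraries held 4.37, 9.46, 11.7, 12.9 and 21.5 RPKM and central marrow libraries 1.996, 4.14, 4.53, 5.12 and 8.73 RPKM. Endothelial cells held 0.636, 0.752, 2.84, 3.85 and 34.0 RPKM in healthy mice and 0.169, 1.35, 1.80, 6.98 and 12.5 RPKM in myeloma-bearing mice, a range that spans that of the myeloma cells. Stromal progenitors had 0 reads in 4 of 10 libraries and 3.84 RPKM at most. In those of myeloma-bearing mice the highest Cxcr4, 2.46 RPKM, was in the library that also had the highest summed level of 4 neutrophil markers, 8061 RPKM. In healthy mice the library with 3.84 RPKM of Cxcr4 had a neutrophil marker sum of 0, and that with the highest sum, 7233 RPKM, had 0 reads of Cxcr4. All 4 healthy osteoprogenitor libraries had 0 reads, and those of myeloma-bearing mice had 0, 0, 0.218 and 1.35 RPKM.

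Lepr, which encodes the leptin receptor, was found in all 3 niche cell types at similar means of 21.8 ± 17.5 RPKM (SD, n = 10) in endothelial cells, 30.9 ± 25.5 RPKM (SD, n = 10) among stromal progenitors and 22.8 ± 14.6 RPKM (SD, n = 8) among osteoprogenitors. Its spread differed in kind. Endothelial libraries fell into 6 of 26.8 to 42.6 RPKM and 4 of 0.092 to 3.96 RPKM, with both levels in healthy and in myeloma-bearing mice. In detail, the healthy endothelial libraries held 0.092, 1.94, 31.45, 32.1 and 38.9 RPKM and those of myeloma-bearing mice 2.55, 3.96, 26.8, 37.8 and 42.6 RPKM. Stromal progenitors held 10.9, 19.5, 21.7, 23.9 and 33.7 RPKM in healthy mice and 3.53, 26.6, 28.9, 44.9 and 95.8 RPKM in myeloma-bearing mice. Osteoprogenitors held 7.50, 8.94, 22.8 and 48.9 RPKM and 8.71, 22.0, 29.3 and 34.6 RPKM, respectively.

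The markers of other cell types in the endothelial libraries were read beside Lepr. The summed level of 9 osteoprogenitor markers ran from 16.6 to 118 RPKM in healthy endothelial libraries and from 19.8 to 626 RPKM in those of myeloma-bearing mice, with Alcam, Sp7, Dkk1 and Bmp7 at or below 1 RPKM in all 10. The summed level of 5 pericyte or smooth muscle markers ran from 126 to 505 RPKM and from 0.068 to 368 RPKM, respectively. Prrx1, a mesenchymal transcription factor, ranged from 0.029 to 22.9 RPKM in healthy endothelial libraries and from 0.020 to 33.4 RPKM in those of myeloma-bearing mice. Markers of blood cells were present as well. The summed level of 2 megakaryocyte markers ran from 0.31 to 224.5 RPKM in healthy endothelial libraries and from 1.05 to 236 RPKM in those of myeloma-bearing mice. In every other group it was at most 6.36 RPKM. The summed level of 6 macrophage or osteoclast markers ran from 0.88 to 165 RPKM and from 1.77 to 264 RPKM, respectively, in endothelial libraries. The part of other cells in the endothelial Lepr, Pdgfra, Pdgfrb and Cxcr4 values was not tested.

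Of the PDGF receptors, Pdgfra had the narrowest range of the 7 genes in both mesenchymal cell types, in terms of the fold between the highest and the lowest library. It stood at 34.2, 46.1, 51.6, 57.1 and 75.6 RPKM in healthy stromal progenitors and at 37.95, 50.0, 57.9, 64.6 and 98.1 RPKM in those of myeloma-bearing mice. Osteoprogenitors held 13.3, 13.6, 24.9 and 37.0 RPKM in healthy mice and 32.0, 32.3, 37.8 and 41.0 RPKM in myeloma-bearing mice, so that 1 of the 4 healthy libraries lay within the range of the diseased ones. In endothelial cells 7 of 10 libraries were below 0.16 RPKM and the other 3 were at 1.23, 5.17 and 6.01 RPKM. Myeloma cells had at most 3 reads of Pdgfra in every library.

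Pdgfrb was lower and more variable. Stromal progenitors held 0.32, 9.475, 15.4, 15.4 and 17.2 RPKM in healthy mice and 6.29, 6.47, 8.88, 17.3 and 52.8 RPKM in myeloma-bearing mice. Osteoprogenitors held 4.08, 6.22, 12.1 and 17.8 RPKM and 3.10, 11.8, 16.0 and 19.2 RPKM, respectively. In endothelial cells 4 of 10 libraries were above 1 RPKM, at 1.33, 2.75, 5.29 and 17.9 RPKM. The endothelial library with 17.9 RPKM of Pdgfrb had 0.041 RPKM of Pdgfra, and that with 6.01 RPKM of Pdgfra had 0.016 RPKM of Pdgfrb, so the 2 receptors were not found in the same endothelial libraries throughout.

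The first comparison asked whether the 7 genes changed in each niche cell type when the mouse carried myeloma. None of them was called by limma. In endothelial cells 5 of the 7 passed the filter and 0 were called, where 0% of all 7880 genes tested were called and 414 had an unadjusted p below 0.05. Cxcl12 changed by -0.50 on the log2 scale (95% interval -1.61 to 0.61, adjusted p = 0.979 by limma) and Kitl by -0.80 (-1.97 to 0.37, adjusted p = 0.943 by limma). None of the 5 had an unadjusted p below 0.05 by limma, and voom-limma on the recovered reads called 0 of them. The Kitl libraries overlapped, with 4 of the 5 from healthy mice above the highest from myeloma-bearing mice, 116 RPKM. The share of all genes called depended on the fit. With all 38 libraries in 1 fit, 258 genes were called in endothelial cells, 31 in stromal progenitors and 16 in osteoprogenitors, none of them a member. The study, with voom-limma at the same thresholds, also reported differentially expressed genes in each of these cell types.

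In stromal progenitors 5 of the 7 passed the filter and 0 were called by limma, where 0% of 8747 genes were called and 437 had an unadjusted p below 0.05. The largest difference was that of Kitl, with means of 2.42 ± 3.71 RPKM (SD, n = 5) in healthy and 25.6 ± 23.3 RPKM (SD, n = 5) in myeloma-bearing mice, a log2 fold change of 2.65 (95% interval 0.22 to 5.08). Leaving out each replicate in turn gave 2.13 to 3.59. Its unadjusted p by limma was 0.0346 and its adjusted p 0.956, so it did not pass the test, and it was the only 1 of the 5 with an unadjusted p below 0.05. Voom-limma called 0 of the 5. Cxcl12 averaged 123.5 ± 128 and 224.5 ± 158 RPKM (SD, n = 5 each), a log2 fold change of 1.44 (-0.22 to 3.11, adjusted p = 0.956 by limma), with 0.69 to 2.02 on leaving out each replicate and the lowest value without N. The log2 fold changes of Lepr, Pdgfra and Pdgfrb were 0.36, 0.19 and 0.59, all with intervals that include 0.

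Markers of other cells were read in the same libraries of stromal progenitors, where their summed levels overlapped between healthy and myeloma-bearing mice. The summed level of 5 pericyte or smooth muscle markers ran from 20.9 to 238 RPKM (median 31.0) in healthy and from 68.0 to 504 RPKM (median 159) in myeloma-bearing mice. The summed level of 7 endothelial markers ran from 1.16 to 15.5 RPKM and from 0.83 to 29.7 RPKM, with Pecam1, Cdh5, Selp and Kdr at or below 1 RPKM in all 10 libraries. The stromal progenitor library with the highest Kitl, 56.7 RPKM, also had the highest Lepr, Pdgfrb and endothelial marker sum, while that with 40.1 RPKM had an endothelial marker sum of 0.884 RPKM. The part of these cells in the Kitl difference was not tested.

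In osteoprogenitors 6 of the 7 passed the filter and 0 were called by limma, where 0.0115% of 8664 genes, a single gene, were called and 422 had an unadjusted p below 0.05. None of the 6 had an unadjusted p below 0.05 by limma, and voom-limma called 0. Il7 differed by 1.35 (95% interval -0.85 to 3.55), Kitl by 1.18 (-1.04 to 3.41), Pdgfra by 0.78 (-0.45 to 2.01) and Cxcl12 by 0.06 (-1.20 to 1.33) on the log2 scale. These intervals reach past a doubling for all 4 genes, and past a halving for Cxcl12 and Kitl. The filter kept Cxcr4 out, which had 0 reads in all 4 healthy libraries and 45 reads at most in the diseased ones (exact permutation test, p = 0.429, n = 4 each).

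**Figure D2:**
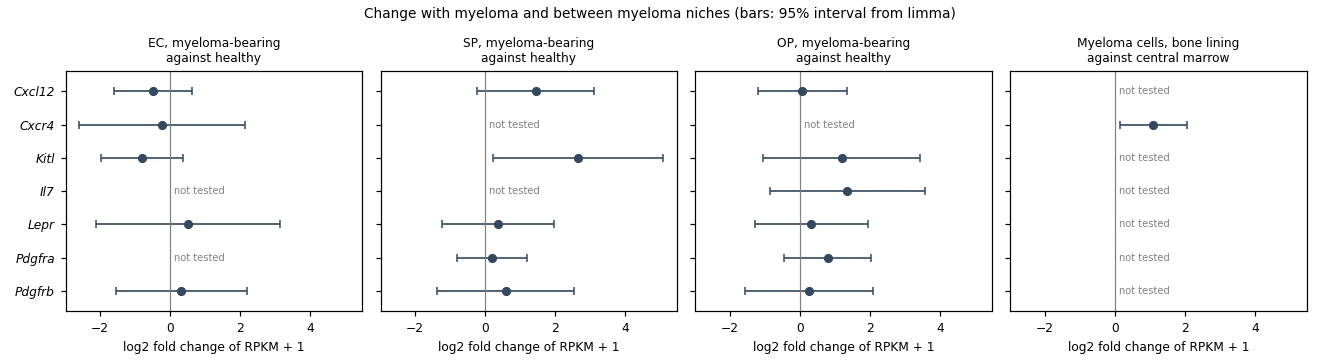
Log2 fold change of RPKM + 1 (points) with its 95% interval from limma (bars) for each gene tested, in endothelial cells (EC), stromal progenitors (SP) and osteoprogenitors (OP) of myeloma-bearing against healthy mice, and in myeloma cells of the bone lining against the central marrow. No gene was called; only Kitl in SP (0.22 to 5.08) and Cxcr4 in myeloma cells (0.14 to 2.04) had intervals that exclude 0, before adjustment for the number of genes.

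Whether the difference between healthy and myeloma-bearing mice differed between cell types was tested as an interaction. None of the 7 genes was called by limma in any of the 3 pairs of cell types, and voom-limma called 0 of them as well. For stromal progenitors against endothelial cells the difference in Kitl change was 3.45 (95% interval 0.82 to 6.07, unadjusted p = 0.0122, adjusted p = 0.91 by limma), the only 1 of 7 with an unadjusted p below 0.05, where 0% of 10596 genes were called and 552 had an unadjusted p below 0.05. For osteoprogenitors against endothelial cells it was 1.98 (-0.37 to 4.32, adjusted p = 0.998 by limma), with 0% of 10756 genes called and 516 below an unadjusted 0.05, among them 0 of the 7. For osteoprogenitors against stromal progenitors it was -1.47 (-4.83 to 1.89, adjusted p = 0.9995 by limma), with 0% of 10735 genes called and 437 below an unadjusted 0.05, among them 0 of the 6 tested. The corresponding differences for Cxcl12 were 1.94 (-0.21 to 4.09), 0.56 (-1.17 to 2.29) and -1.38 (-3.76 to 0.99).

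The comparison of myeloma cells from the bone lining and the central marrow bears on Cxcr4, since the other 6 genes did not pass the filter there. Mean Cxcr4 was 11.98 ± 6.23 RPKM (SD, n = 5) in bone-lining cells against 4.90 ± 2.44 RPKM (SD, n = 5) in those of the central marrow, which is a difference of 1.09 on the log2 scale (95% interval 0.14 to 2.04). Its unadjusted p by limma was 0.0269 and its adjusted p 0.789, so it was not called, while 0.203% of 8857 genes were called and 530 had an unadjusted p below 0.05. Voom-limma did not call it either. The groups overlapped: 4 bone-lining libraries were at or above 9.46 RPKM, and the highest central marrow library was at 8.73 RPKM. The fifth bone-lining library, with letter J, held 4.37 RPKM. For each letter the bone-lining library held more than the central marrow library. The values were 21.5 against 4.53 RPKM for D, 9.46 against 5.12 for E and 12.9 against 8.73 for G. They were 11.7 against 1.996 for I and 4.37 against 4.14 for J. The letters were not taken as pairs, and with the letter as a block in the fit Cxcr4 was still not called.

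That bone-lining library J also stood apart in the niche genes. It held 2.26 RPKM of Cxcl12 (216 reads), 1.62 RPKM of Kitl (118 reads), 0.968 RPKM of Pdgfrb (70 reads) and 0.666 RPKM of Lepr (59 reads), against at most 21, 8, 2 and 0 reads of these genes in the other 4 bone-lining libraries. Pdgfra had 0 reads in it. Its summed endothelial markers, 15.9 RPKM, osteoprogenitor markers, 64.6 RPKM, and stromal progenitor markers, 6.21 RPKM, lay within the range of the other bone-lining libraries, while its pericyte or smooth muscle sum, 4.42 RPKM, was the highest of the 5. The part of other cells in these reads was not tested. Without this library the log2 fold change of Cxcr4 between the myeloma niches was 1.37 (adjusted p = 0.56 by limma).

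The 6 genes below the filter in myeloma cells were compared by exact permutation tests, two-sided, of 5 against 5 libraries, with 0.00794 as the smallest p possible. The p-values were 0.389 for Cxcl12, 0.278 for Kitl, 1.000 for Il7, 1.000 for Lepr, 0.492 for Pdgfra and 0.206 for Pdgfrb. Over all 21 such tests of members that the filter kept out of a comparison, 2 had a raw p below 0.05 and none had an adjusted p below 0.389.

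The next comparisons asked how the 7 genes differ between healthy niche cell types. A gene high in 1 type only passes the filter through that type, so the numbers called are a description and not a measure of how the 7 stand among all genes. For stromal progenitors against endothelial cells 6 of the 7 were tested and 2 were called, 1 in each direction, where 17.3% of 8457 genes were called. Kitl was lower in stromal progenitors, at -6.15 on the log2 scale (standard error 0.83, adjusted p = 0.000143 by limma), with 2.42 against 166 RPKM. Pdgfra was higher, with 52.9 ± 15.3 against 1.49 ± 2.58 RPKM (SD, n = 5 each), which is 4.86 on the log2 scale (standard error 0.82, adjusted p = 0.000958 by limma). In both cases no library of 1 group reached into the range of the other. Cxcl12 differed by -1.93 (95% interval -3.74 to -0.12, adjusted p = 0.172 by limma), Cxcr4 by -1.52 (-3.42 to 0.38), Pdgfrb by 2.29 (0.24 to 4.34, adjusted p = 0.150 by limma) and Lepr by 1.02 (-1.23 to 3.28). With all 38 libraries in 1 fit, Cxcl12, Cxcr4 and Pdgfrb passed the threshold too (adjusted p = 0.0353, 0.0993 and 0.0222 by limma), which made 5 of the 6 called.

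For healthy osteoprogenitors against endothelial cells 5 of the 7 were tested and the same 2 genes were called in the same directions, where 16.5% of 8258 genes were called. Kitl was lower, at -4.33 on the log2 scale (standard error 0.94, adjusted p = 0.00801 by limma), with 14.1 ± 17.9 RPKM (SD, n = 4) against 166 ± 73.8 RPKM (SD, n = 5), and Pdgfra was higher by 3.56 (standard error 0.89, adjusted p = 0.0184 by limma). The call for Pdgfra was lost without replicate N (3.28, adjusted p = 0.152 by limma) or without replicate O (3.10, adjusted p = 0.176 by limma). Pdgfrb lay at the threshold, with a log2 fold change of 2.37 (0.48 to 4.25, adjusted p = 0.106 by limma), and it passed with voom-limma (adjusted p = 0.0699), with all 38 libraries in 1 fit (adjusted p = 0.0271 by limma) or without replicate C (adjusted p = 0.0413 by limma). Cxcr4, below the filter, was at 0 reads in all 4 osteoprogenitor libraries and had 27 to 1082 reads in the 5 endothelial ones (exact permutation test, p = 0.0238, adjusted p over the 21 tests 0.389).

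For osteoprogenitors against stromal progenitors, both healthy, 5 of the 7 were tested and 0 were called by limma or by voom-limma, where 3.58% of 8707 genes were called. Pdgfra was the only 1 with an unadjusted p below 0.05, with 22.2 ± 11.3 RPKM (SD, n = 4) in osteoprogenitors and 52.9 ± 15.3 RPKM (SD, n = 5) in stromal progenitors, a log2 fold change of -1.30 (95% interval -2.39 to -0.20, adjusted p = 0.272 by limma). Lepr (-0.28, -1.72 to 1.16) and Pdgfrb (0.07, -1.91 to 2.06) had intervals that allow a doubling and a halving. Kitl (1.82, -0.53 to 4.17) and Cxcl12 (1.37, -0.55 to 3.296) had positive estimates with intervals that include 0 and reach further above it than below it. The 3 healthy comparisons share their libraries, so they are not independent of each other.

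Bone-lining myeloma cells were then set against each niche cell type of the same group of mice, in which 5TGM1-GFP cells had grown for 23 days. The niche genes passed the filter through the niche cells alone, so that their numbers called are a description. Against endothelial cells 4 of the 7 were tested and 3 were called, all lower in myeloma cells, where 41.5% of 9207 genes were called. These were Cxcl12, at -7.06 on the log2 scale (standard error 0.55, adjusted p = 8.384e-07 by limma), Kitl, with -6.16, and Lepr, with -3.78. Cxcr4 was at 11.98 ± 6.23 against 4.56 ± 5.16 RPKM (SD, n = 5 each), a log2 fold change of 1.61 (95% interval 0.03 to 3.20, adjusted p = 0.108 by limma), and without library J it was 1.90 (adjusted p = 0.0958 by limma), which passes the threshold, as did the values without replicate D of both groups (1.83, adjusted p = 0.0752 by limma) and with all 38 libraries in 1 fit (adjusted p = 0.057 by limma).

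Against stromal progenitors 6 of the 7 were tested and 6 called, 5 lower and 1 higher in myeloma cells, where 42.4% of 9460 genes were called. Against osteoprogenitors 6 of 7 were tested and 6 called, also 5 lower and 1 higher, where 42.9% of 9316 genes were called. The gene that was higher was Cxcr4 in both. It passed the filter through the myeloma cells, with 5 of 5 bone-lining libraries above 1 RPKM against 1 of 5 stromal progenitor and 1 of 4 osteoprogenitor libraries, so its values are a description as well. It was higher by 3.14 (standard error 0.58, adjusted p = 0.000814 by limma) against stromal progenitors and by 3.17 (standard error 0.55, adjusted p = 0.00062 by limma) against osteoprogenitors. Cxcl12 had the lowest log2 fold change in both, with -7.08 and -7.07, followed by Pdgfra, with -5.88 and -5.17. Lepr had -4.65 and -4.32, Pdgfrb -3.60 and -3.33, and Kitl -3.46 and -3.80. Kitl against stromal progenitors was the exception in 2 respects: its libraries overlapped, since 1 stromal progenitor library held 0.029 RPKM, and voom-limma did not call it (adjusted p = 0.118). Without library J all 6 kept their direction and their call in both comparisons, with Cxcl12 at -7.39 and -7.38. The median log2 fold change of all genes tested was 0.49, 0.35 and 0.39 against endothelial cells, stromal progenitors and osteoprogenitors, and 0.41, 0.24 and 0.20 after median-of-ratios scaling. Relative to those medians Cxcr4 remained higher and the other genes lower.

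**Figure D3:**
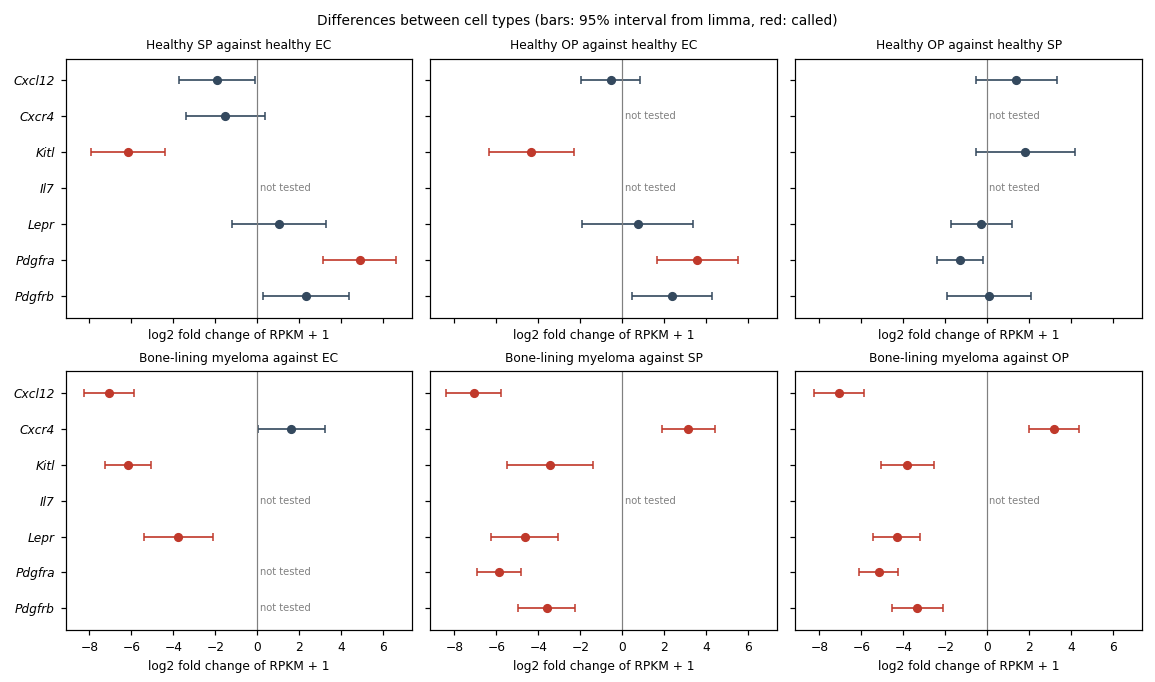
Log2 fold change of RPKM + 1 (points) with its 95% interval from limma (bars) for each gene tested, between healthy niche cell types (top row) and in bone-lining myeloma cells against niche cells of myeloma-bearing mice (bottom row); genes called are red. Kitl and Pdgfra separated endothelial from mesenchymal cells in opposite directions, and Cxcr4 was the only gene to the right of 0 in myeloma cells.

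Other genes of the same pathways were described by 7 lists of 57 genes, 53 of which were in the table. In the comparisons of healthy and myeloma-bearing mice 0 list genes were called by limma or voom-limma, of 42 tested in endothelial cells, 43 in stromal progenitors and 39 in osteoprogenitors, and 1, 4 and 3 had an unadjusted p below 0.05. Of 22 tested between the myeloma niches 0 were called by either tool and 3 were below an unadjusted 0.05. The 3 interactions also gave 0 calls by either tool, with 2, 1 and 4 genes below an unadjusted 0.05. In endothelial cells, where 0% of all genes were called, the median log2 fold change was 0.09 over 7 tested genes of the CXCL12 axis, 0.25 over 6 transcription factors of Cxcl12-abundant reticular cells and 0.63 over 10 other niche factors, against 0.07 over all genes tested. In stromal progenitors these medians were 0.12 over 7, 0.56 over 7 and -0.14 over 13 genes, and in osteoprogenitors 0.05 over 6, 0.24 over 7 and -0.46 over 10 genes, against -0.00062 and -0.028 over all genes tested. The other 4 lists had 2 to 8 genes tested each. In endothelial cells, stromal progenitors and osteoprogenitors the median of the leptin axis was 0.66, 0.42 and 0.72, and that of the SCF axis 0.59, 0.25 and 1.59. The median of the PDGF axis was 0.41, -0.57 and 0.017, and that of the interleukin 7 axis -0.077, -0.33 and 0.36, in the same order.

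Between healthy cell types 17 of 45 list genes tested were called in stromal progenitors against endothelial cells and 16 of 44 in osteoprogenitors, where 17.3% and 16.5% of all genes were called. The lists were chosen for their part in the niche and many of their genes are high in 1 cell type only, so the counts are a description. Of the CXCL12 axis, Mmp2, a gelatinase, was higher in stromal progenitors than in endothelial cells by 4.81 on the log2 scale and in osteoprogenitors by 5.07, and Cxcr7, the decoy receptor of CXCL12, was higher in stromal progenitors by 4.06. Gnai2, an inhibitory G-protein subunit that signals below CXCR4, was lower in the 2 mesenchymal types, with -1.76 and -2.06, which made 2 genes called higher and 1 lower of 7 tested in each comparison. Cxcl14, a chemokine, was higher in osteoprogenitors by 4.72. Between the 2 mesenchymal types 1 gene of the axis was called, Cxcr7, at -1.86 on the log2 scale (standard error 0.31, adjusted p = 0.00504 by limma) in osteoprogenitors.

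Of the SCF axis, Kit, the receptor of stem cell factor, was the only gene called of 4 tested in stromal progenitors and 3 in osteoprogenitors, and it was lower than in endothelial cells with log2 fold changes of -3.29 in both. Ligand and receptor were therefore both higher in the endothelial libraries. Of the PDGF axis, Pdgfb (-4.54 and -4.32) was lower in both mesenchymal types, and Pdgfd (-4.78) in stromal progenitors. Pdgfc was higher in both (4.31 and 4.91) and Pdgfa in osteoprogenitors (3.57). Pdgfb encodes a ligand of both PDGFRα and PDGFRβ, Pdgfd a ligand of PDGFRβ, and Pdgfa and Pdgfc ligands of PDGFRα. Of the interleukin 7 axis, 2 of 7 were called lower in each type, Il2rg (-9.42 and -7.08), the shared cytokine receptor chain, and Jak1 (-1.82 and -2.09), by limma, while voom-limma called 2 in stromal progenitors and 1 in osteoprogenitors. None of the 5 genes tested of the leptin axis was called by limma or voom-limma in the healthy comparisons, and 0 had an unadjusted p below 0.05.

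Of the transcription factors of Cxcl12-abundant reticular cells, Prrx1 (4.69) and Runx1 (3.21) were higher in stromal progenitors than in endothelial cells, and Runx1 (2.83) in osteoprogenitors, of 7 tested in each. Limma called none of the others, while voom-limma called 2 of the 7 in each comparison. Of the other niche factors, Spp1, which encodes osteopontin (10.6 and 9.52), and Fn1, fibronectin (6.73 and 5.77), were higher in stromal progenitors and osteoprogenitors, and Tek, the angiopoietin receptor (-6.53 and -7.21), was lower. In all, 4 were higher and 2 lower of 11 tested in stromal progenitors, and 3 and 3 of 11 in osteoprogenitors, by limma. Voom-limma called 3 genes of this list in each comparison, against 6 by limma. Between the mesenchymal types limma called 1 of 11, Nov, a matricellular protein, with -4.98 (adjusted p = 0.00388 by limma) in osteoprogenitors. Voom-limma called 2 of the 11.

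The list genes were also compared between myeloma and niche cells, where 41.5%, 42.4% and 42.9% of all genes tested were called against endothelial cells, stromal progenitors and osteoprogenitors. Against stromal progenitors 2224 of all genes were higher and 1783 lower in myeloma cells. The list genes passed the filter mainly through 1 side, so nothing is read from their counts about the lists. In bone-lining myeloma cells against stromal progenitors 6 of 7 tested transcription factors of Cxcl12-abundant reticular cells were lower and none higher, led by Prrx1 (-6.31) and Foxc1 (-4.58), and 12 of 13 other niche factors were lower, led by Spp1 (-10.2) and Fn1 (-9.90). Of the CXCL12 axis 5 were lower and 1 higher of 8 tested, with Cxcr7 at -8.33 and Mmp2 at -7.37. Of the interleukin 7 axis 2 were higher, Il2rg (6.17) and Crlf2 (4.58), a cytokine receptor chain, and 1 lower, Jak1 (-3.71), of 6 tested. The same axis had 2 higher and 3 lower of 6 tested against osteoprogenitors, and 1 higher and 2 lower of 6 against endothelial cells. Against endothelial cells Il2rg was lower in myeloma cells (-2.82), and Itga4, the integrin chain that binds VCAM1, was higher (4.99). Vcam1 itself was lower in that comparison, with a log2 fold change of -6.28.

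Cxcl12 was then set against each of the other 6 genes across the libraries of a cell type, to see whether aliquots rich in Cxcl12 were rich in other niche factors. Of the 18 pairs of gene and cell type, 0 had an adjusted p below 0.05 in permutation tests of Pearson's r, which ran from -0.44 to 0.67, and 2 had a raw p below 0.05. In stromal progenitors r with Kitl was 0.63 (permutation p = 0.0466, adjusted p = 0.36) and rho 0.67 (permutation p = 0.0393, adjusted p = 0.236, n = 10). Leaving out the 2 libraries farthest from the median of Cxcl12, healthy M and N, gave r = 0.42, and subtracting the mean of each group gave 0.50. In endothelial cells rho with Kitl was 0.70 (permutation p = 0.0308, adjusted p = 0.236, n = 10), while r was 0.46 (permutation p = 0.179, adjusted p = 0.454), 0.26 without the 2 farthest libraries, healthy M and O, and 0.31 after subtracting group means. In these cells r with Pdgfra was 0.67 (permutation p = 0.035, adjusted p = 0.36, n = 10) and rho 0.70 (permutation p = 0.0304, adjusted p = 0.236), and it was 0.92 without the 2 farthest libraries and 0.68 after subtracting group means. Only 3 of these 10 libraries were above 0.16 RPKM of Pdgfra, and without replicate O of the healthy mice r was 0.95 with an adjusted permutation p of 0.0236, the only pair to pass in any setting. In stromal progenitors r with Pdgfrb was 0.64 (permutation p = 0.0601, adjusted p = 0.36, n = 10), rho was 0.39 (permutation p = 0.264, adjusted p = 0.594), and r was 0.27 without the 2 farthest libraries. With Lepr, r was 0.53 in endothelial cells, 0.39 in stromal progenitors and 0.18 in osteoprogenitors, with adjusted permutation p-values of 0.412, 0.518 and 0.801.

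**Figure D4:**
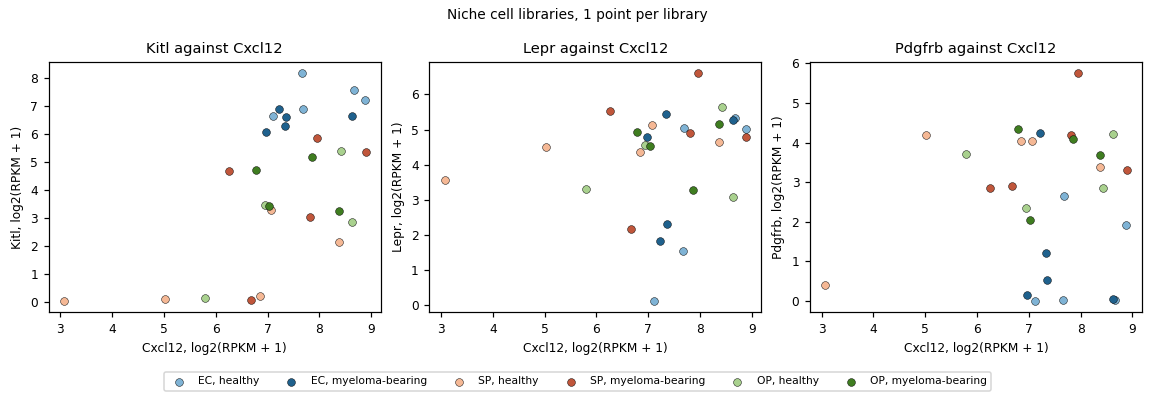
Kitl, Lepr and Pdgfrb against Cxcl12, all as log2(RPKM + 1), in the 28 niche cell libraries (1 point each, coloured by group). Endothelial cells (EC) have Kitl at 65.9 to 284 RPKM, with a rank correlation of 0.70 with Cxcl12 that did not pass the adjusted test; stromal progenitors (SP) and osteoprogenitors (OP) below 1 RPKM of Kitl lie at Cxcl12 levels from 7.39 to 114.5 RPKM.

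The genes whose level followed each member most closely over all 38 libraries were taken from 12683 genes, as a description, since cell type sets most of these correlations. Cxcl12 was followed by Igfbp4, Sgk1 and App (r = 0.95, 0.94 and 0.94). Kitl was followed by Slc43a3 (r = 0.90), Epas1 (0.89), which encodes the hypoxia-inducible factor HIF-2α, and BC028528 (0.88). Lepr was followed by Bmp4 (r = 0.87), a bone morphogenetic protein, Mbnl2 (0.86) and Gpx7 (0.85). Pdgfra was followed by Prg4 (r = 0.98), which encodes lubricin, and by the matrix proteoglycan gene Dcn (0.97) and Gsn (0.97), and Pdgfrb by Rab34 (0.91), Reck (0.87) and Apod (0.85). The closest genes were less close for Cxcr4, namely Nes (r = 0.80), Rpl37 (0.78) and Abcg1 (0.78), and for Il7, namely Tmeff1, Psma8 and B330016D10Rik (0.68, 0.68 and 0.64).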

How the data were processed

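RNA-Seq libraries of 100 sorted cells, made by the SmartSeq2 protocol, were analysed in 38 samples of 8 groups. Per the study's methods and the submitters' processing notes, reads were aligned to GRCm38 with STAR 2.4.0 and counted with featureCounts of Subread 1.4.5-p1, genes with low counts were removed, and the deposited values are RPKM computed by the authors with edgeR. The reads behind each value were recovered from the steps between low values, as whole numbers for all 13260 genes, and library sizes came out alike through at least 37 of 38 paths. Totals were 9735031 to 34883291 reads, which bound counting error only, since amplified copies are not independent molecules.

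Comparisons were fitted to log2(RPKM + 1) by limma 3.58.1 (eBayes with a mean-variance trend, R 4.3.3). Each fit held the libraries of that comparison alone and the genes exceeding 1 RPKM in 4 or more of them, with Benjamini-Hochberg adjustment over all genes tested. Members below the filter were tested by exact permutation. Covariation used Pearson's r and Spearman's rho with exact permutation for 8 libraries and 100000 resamples for 10 (Python 3.11.15, numpy 2.4.6, pandas 2.3.3, scipy 1.17.1). Figures used matplotlib 3.10.9. The scripts were tested on simulated data.

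The members and gene lists were chosen with earlier results of these data known. Named genes were all 7 members, at most 4 list genes called within a cell type, at most the 3 with the largest change per list between cell types, and the 3 genes most alike each member. Of 57 list genes, 53 were matched to the table by symbol or older symbol. Gene positions are from GENCODE vM21. Alternatives covered the pseudocount, the filter, the libraries in the fit, scaling, voom-limma on the recovered reads, a block for letters and leaving out each replicate. No library repeated another: the closest pair within a group had r = 0.947. The labels do not name the mouse of each library, so p-values measure the spread between these samples.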

Additional observations from a re-analysis of the deposited data

Results flagged for a closer look

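Dixon's test was run on the 44 sets of 1 gene in 1 group of 4 or 5 libraries that held a library above 1 RPKM, and in 10 of them a single library stood far from the others. Chance gives about 1 in 20 sets, but that rate does not apply here, since some sets entered only through the library that stood apart. In endothelial cells of myeloma-bearing mice library J was high for 3 genes, with Cxcl12 at 396 RPKM against 125 to 163 RPKM in the other 4, Il7 at 12.5 RPKM against 0 and Pdgfra at 5.17 RPKM against 0.0079 to 0.155 RPKM. Its summed level of 3 chondrocyte markers was 24.45 RPKM, against 0.078 to 0.622 RPKM in the other 4. Its endothelial marker sum, 2772 RPKM, was the highest of that group. In the same group library E held 17.9 RPKM of Pdgfrb against 0.043 to 1.33 RPKM. In bone-lining myeloma cells library J held 2.26 RPKM of Cxcl12 against 0.063 to 0.129 RPKM and 1.62 RPKM of Kitl against 0.014 to 0.104 RPKM. Il7 was found at 24.2 RPKM in healthy endothelial library C against 0 to 0.017 RPKM, and at 7.31 RPKM in healthy osteoprogenitor library N against 0. Cxcr4 was at 2.46 RPKM in stromal progenitor library E of myeloma-bearing mice against 0 to 0.099 RPKM. Healthy stromal progenitor library N was low for Pdgfrb, at 0.32 RPKM against 9.475 to 17.2 RPKM. The causes were not tested.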

How the results depend on the processing

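Of 902 alternative values of 73 results, 863 kept their direction and their side of the threshold, and 0 of those called reversed. With all 38 libraries in 1 fit, 5 members instead of 2 were called between healthy stromal progenitors and endothelial cells, and 258, 31 and 16 of all genes instead of 0, 0 and 1 were called between healthy and myeloma-bearing mice in endothelial cells, stromal progenitors and osteoprogenitors, none of them a member. That fit called 2376 and 2232 genes, instead of 1465 and 1361, in healthy stromal progenitors and osteoprogenitors against endothelial cells. Leaving out 1 replicate gave 1 to 3 members called in healthy osteoprogenitors against endothelial cells (2 with all; 1 without N or O), 1 to 6 in bone-lining myeloma cells against osteoprogenitors (6 with all; 3 without D, G or I and 1 without J), where fewer members pass the filter with 3 osteoprogenitor libraries, and 0 to 1 pairs in the covariation (0 with all). The corresponding counts over all genes were 483 to 1351 in healthy osteoprogenitors against endothelial cells, 113 to 343, instead of 312, against stromal progenitors, and 3 to 16, instead of 18, between the myeloma niches, where no filter gave 1, pseudocount 0.1 gave 12 and voom-limma 8.

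Among these results signs turned only when a replicate was left out. Of the interactions of members other than Cxcl12 and Kitl, which are not among them, the sign under voom-limma with all libraries differed for Cxcr4 (-0.0058 by limma, 0.49 by voom-limma) and Pdgfrb (0.27 and -1.20) in stromal progenitors against endothelial cells and for Lepr (-0.042 and 0.32) in osteoprogenitors against stromal progenitors. On leaving out a replicate, between myeloma-bearing and healthy mice the ranges were -0.69 to 0.50 for Cxcr4 and -0.30 to 1.04 for Lepr in endothelial cells, -0.092 to 1.01 for Lepr and -0.11 to 0.84 for Pdgfrb in stromal progenitors, and -0.49 to 0.46 for Cxcl12, -0.039 to 0.81 for Lepr and -0.063 to 0.75 for Pdgfrb in osteoprogenitors. The difference of the Cxcl12 changes in osteoprogenitors and endothelial cells ran from -0.16 to 1.18. Between healthy cells the ranges were -1.18 to 0.16 for Cxcl12 and -0.22 to 1.496 for Lepr in osteoprogenitors against endothelial cells, and -0.80 to 0.013 for Lepr and -0.94 to 0.43 for Pdgfrb in osteoprogenitors against stromal progenitors. The cause was not tested.

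Letters shared by groups were not taken as pairs: 59 correlations of same-letter deviations ran from -0.043 to 0.12, and no pair of groups had all above 0.1. In 27 of the 59 cases, over 13 pairs of groups, a library correlated best with its own letter. Letters without meaning would give about 13 such cases, so this is a hint of pairing, from the data and not from the design. The main fits treat the libraries as independent. With the letter as a replicate block, Cxcl12 in healthy stromal progenitors against endothelial cells passed the threshold (-1.93, adjusted p = 0.0963 by limma), which made 3 members called, and no other call of a member changed. Library J of the bone-lining myeloma cells was left out after the data had been seen. Reads of 100 cells, amplified before sequencing, limit what the low values of Il7 and Cxcr4 can show.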

Other observations

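Adipoq, which encodes the hormone adiponectin and is made by adipocytes and by Cxcl12-abundant reticular cells, was read beside the members after its values were seen. In healthy stromal progenitors Adipoq ran from 0.113 to 1.09 RPKM, and in those of myeloma-bearing mice it stood at 0.781, 1.31, 48.7, 328 and 519 RPKM. The 2 libraries with the most Adipoq, D and J, were also the 2 with the most Kitl and Cxcl12 in that group. Osteoprogenitors held 0.45 to 700 RPKM of Adipoq in healthy mice and 156 to 495 RPKM in myeloma-bearing mice, and endothelial cells 0.092 to 501 RPKM and 0.174 to 274 RPKM, so the groups overlapped there. Myeloma cells held at most 1.00 RPKM. No test was made of Adipoq, since it was chosen for these values.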
